A study of Mus musculus with 9 samples.

Results

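The immediate early response genes analysed here are 42 genes named in a list and found by symbol among the 52183 genes of the deposited expression table. The rule for membership uses no measured value, but the list was drawn up with earlier results of these data known. All 42 averaged 1 FPKM or more across all 9 libraries, where FPKM is the number of fragments scaled by gene length and library depth, so none was left out for low values. Immediate early genes are transcribed within minutes of a stimulus by factors that the cell already holds, without new protein synthesis. Growth factors, cytokines, shear and stress reach their promoters through MAP kinases, which act on SRF and its partners, and through cAMP and calcium signals, which act on CREB. The products are transcription factors that drive later genes, and feedback inhibitors that end the signal. In endothelium many of them respond to flow and inflammation, and the release of cells from a tissue is also known to induce them.

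Endothelial cells, which line the vessels of the marrow, had been sorted out of mouse long bones, and their RNA was sequenced in 3 groups of 3 libraries. The groups were young controls of 3 months, aged controls of 18 months, and mice of 18 months with the genotype label Aged Thbs1 knockout. In all 3 groups the mice received an antibody to VE-cadherin by retro-orbital injection shortly before death, and cells were sorted by flow cytometry into a lysis reagent. The sources used here give no strain, no sex and no description of the altered Thbs1 allele. Nothing in the labels says that the libraries of a group came from separate mice, so p-values measure the spread between libraries, which may be technical.

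Thbs1 (GRCm38 chromosome 2, 118111876 to 118127133), which encodes the secreted matrix protein thrombospondin-1, went against the knockout label. It read 4.55, 3.89 and 4.18 FPKM in young controls, 0.67, 0.82 and 1.17 FPKM in aged controls, and 25.6, 19.5 and 19.8 FPKM in libraries labelled knockout. The difference in log2(FPKM + 1) from the aged controls was 3.58 ± 0.139 (SE, adjusted p = 2.85e-06). Which exons were read is not known, so the direction of every comparison below rests on the label alone. Depth, recovered from the steps of the low values, was 22862000 to 23892000 fragments in young controls, 22160000 to 24586000 in aged controls and 27232000 to 30404000 in libraries labelled knockout. The 10 endothelial markers, Cdh5 and Pecam1 among them, summed to 2104 to 2135 FPKM in young controls, 2267 to 2424 in aged controls and 2092 to 2132 in libraries labelled knockout. One of them was called, Cldn5, a tight junction protein, which was higher with age (log2 difference 0.74, limma adjusted p = 0.0232) and lower in libraries labelled knockout than in aged controls (-0.78, limma adjusted p = 0.00897). The sums of the other 9 overlapped in all 3 groups, at 1609 to 1674, 1402 to 1625 and 1522 to 1706 FPKM in the same order. The leukocyte and monocyte list summed to 61.1 to 107.03, 76.4 to 87.3 and 62.7 to 71.4 FPKM in the same order. B and plasma cell markers varied most, from 4.35 to 393.9, from 412.3 to 2388 and from 3.45 to 1640 FPKM, and the part of these other cells in the results below was not tested. The summed neutrophil and erythroid markers reached at most 197.2 and 155.4 FPKM in any library. The stromal, osteoblast and fat cell list summed to 76.9 to 106.3 FPKM in young controls, 40.3 to 48.9 in aged controls and 35.1 to 46.7 in libraries labelled knockout. Of its 4 tested genes, Cxcl12, Ibsp and Adipoq were lower with age (log2 differences -0.70, -2.23 and -1.02), and Adipoq was lower again in libraries labelled knockout than in aged controls (-0.55, limma adjusted p = 0.0389). Ibsp went the other way without a call (0.99, limma adjusted p = 0.0924). It read 4.36, 4.56 and 3.66 FPKM in aged controls and 10.98, 8.06 and 9.09 in libraries labelled knockout. No marker of any list was at 0 in every library. In RNA from sorted pools, fewer cells with a transcript and less transcript per cell cannot be told apart.

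Promoters of 33 of the 42 genes were matched by symbol in the RefSeq table for GRCm38.p6. Each ran from 250 bases before to 50 bases after a start of the gene, and elements outside it were not searched. No promoter was found there for Egr1, Egr3, Myc, Fosl1, Ier2, Dusp4, Zfp36l2, Sik1 and Trib1, which were therefore not searched. Some genes, such as Egr2 and Maff, had several starts and so several promoters. The Egr2 start used below was picked for holding the marked elements. The stretches of 150 bases before the start of Egr2, Plk2 and Dusp2 are shown because these genes carry the results below and hold 3 of the element types through which immediate early genes are known to be read. All 3 are on the plus strand and touch no exon of GENCODE M21, in which the span of Egr2 begins upstream of the stretch shown. Capitals mark the matched letters.
Egr2, chr10:67537719-67537868: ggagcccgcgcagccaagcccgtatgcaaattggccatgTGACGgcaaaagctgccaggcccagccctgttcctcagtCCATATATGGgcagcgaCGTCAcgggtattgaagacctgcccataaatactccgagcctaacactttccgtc
Plk2, chr13:110394894-110395043: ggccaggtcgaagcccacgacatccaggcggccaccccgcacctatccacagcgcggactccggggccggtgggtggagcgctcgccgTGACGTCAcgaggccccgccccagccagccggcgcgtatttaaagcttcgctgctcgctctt
Dusp2, chr2:127336009-127336158: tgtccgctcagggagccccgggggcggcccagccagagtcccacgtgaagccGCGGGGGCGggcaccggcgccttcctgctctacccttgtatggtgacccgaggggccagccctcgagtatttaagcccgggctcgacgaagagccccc
The Egr2 stretch holds an SRF CArG box 72 bases before the start, and letters of the CRE core TGACG at 111 and, on the other strand, 55 bases before it. The Plk2 stretch holds the full CRE TGACGTCA, the element bound by CREB and ATF proteins, 62 bases before the start. The Dusp2 stretch holds an EGR site, here GCGGGGGCG, 98 bases before the start.

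Over whole promoters, searched on both strands, the full CRE was found in 5 of 33 members (15.2%) and in 2.0% of the 27025 genes with a promoter in the table. A gene was counted if any of its promoters held the letters, so these shares depend on the number of starts per gene. The core TGACG, which lies within every full CRE, was found in 19 members (57.6%) and in 23.0% of all genes. The SRF CArG box was found in 3 members (9.1%, against 1.8% of all genes), namely Egr2, Dusp5 and Zfp36. An NF-kB site was found in 6 members (18.2%, against 5.1%), and an EGR site, GCGGGGGCG or GCGTGGGCG, in 7 (21.2%, against 3.9%). An AP-1 site, TGANTCA, was found in 2 members (6.1%, against 9.0%), and TATAAA in 8 (24.2%, against 15.7%). These shares describe letters in a window, and binding was not measured.

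Immediate early transcripts were abundant in every library. Together the 42 members made up 3.90% to 5.38% of all FPKM, between 13572 and 17192 FPKM per library. Fos led with a mean of 3194 FPKM over the 9 libraries, followed by Junb at 1901, Dusp1 at 1353, Zfp36 at 1262.5, Jun at 1105 and Egr1 at 1058 FPKM. These 6 genes held 60.7% to 67.98% of the members' sum. At the other end, Nr4a3 had a mean of 1.48 FPKM, and 21 of the 42 members were above 100 FPKM. The sum in the aged controls spanned that of both other groups, and the sums in libraries labelled knockout (15725 to 16538 FPKM) lay just above those in young controls (13997 to 15706 FPKM). The median member was apart in all 3 groups and stood at 101.4 to 107.6 FPKM in young controls, 67.2 to 73.8 FPKM in aged controls and 121.8 to 132.8 FPKM in libraries labelled knockout. The plot of all members by library shows both features, with the top genes close together across groups and many of the lower ones shifted to the left in the aged controls.

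**Figure D1:**
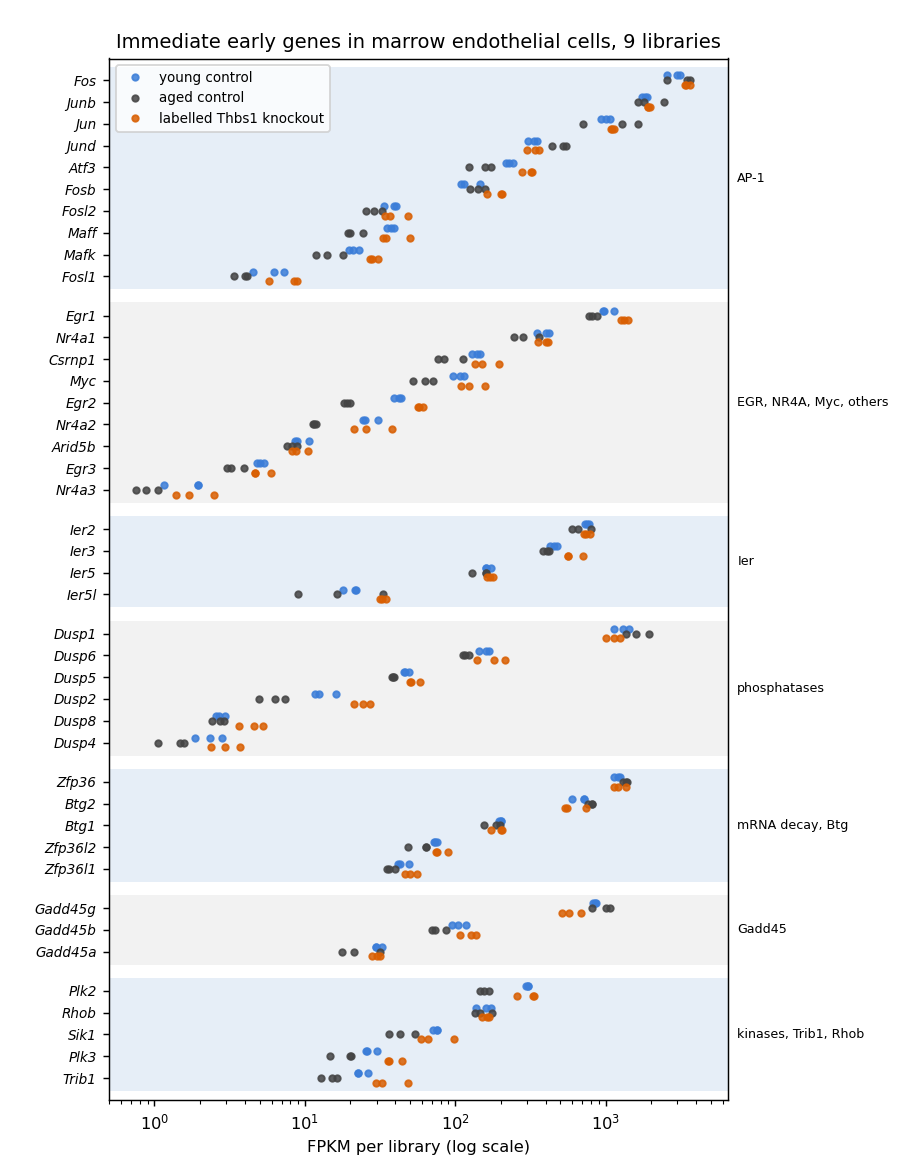
FPKM of the 42 immediate early genes (log axis) in each of the 9 libraries, 1 point per library, grouped by role and ordered by mean within a role. Fos has the highest value in every library, and for Egr2, Nr4a2 and Plk2 all 3 aged controls lie below the other 6 libraries.

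Between the libraries labelled knockout and the aged controls, 20 of the 42 members were higher and 2 lower (limma, adjusted p under 0.05 over 11796 genes). Of all genes tested, 2.78% were higher and 2.01% lower. The members higher in libraries labelled knockout were Atf3, Maff, Mafk, Fosl1, Egr1, Egr2, Nr4a2, Myc, Csrnp1, Ier3, Dusp2, Dusp4, Dusp5, Dusp6, Dusp8, Zfp36l1, Gadd45b, Plk2, Plk3 and Trib1. The lower ones were Jund and Gadd45g. The median log2 difference of the members, in log2(FPKM + 1) as in all that follows, was 0.52, beside 0.00 for all genes, and 35 of 42 were above 0. The 3 libraries labelled knockout were all above the 3 aged controls in 27 members and all below in 4, the other two being Dusp1 and Btg2. Over all genes this was so for 12.1% and 11.1%. Without replicate 1 labelled knockout or without replicate 3 the count of called members was 14, and without the other libraries in turn it was 16 to 23. With no filter on low genes 9 members were called, all higher (Egr2, Atf3, Nr4a2, Dusp2, Myc, Mafk, Trib1, Plk2 and Plk3), and in a fit of the 2 groups alone these and Egr1 were called, so that Jund, Gadd45g and the other 10 higher members lost their calls in both. Heat shock genes, a fixed list of 14 that tissue dissociation is known to induce, summed to 1951 to 2172 FPKM in libraries labelled knockout, 1332 to 1818 FPKM in aged controls and 1564 to 1636 FPKM in the young controls. Their part in the result was not tested.

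Between the aged and the young controls, 7 members were lower with age and 1 higher, where 2.80% of all genes were lower and 1.20% higher. After median-ratio scaling the balance over all genes turned, with 238 higher and 196 lower in place of 141 and 330, while the members called were 6 lower and 1 higher. With no filter on low genes, Egr2 and Plk2 alone were called among the members. The lower ones were Egr2, Nr4a2, Dusp2, Plk2, Maff, Myc and Atf3, and Jund was higher. The median log2 difference was -0.36 for the members and -0.05 for all genes, and 33 of 42 members were below 0. The 3 aged controls were all below the 3 young controls in 24 members and all above in 3, which was so for 21.8% and 13.9% of all genes. The count of members called by limma moved when 1 library was left out, and the cause was not tested. Without young control replicate 1, 2 or 3 it was 1, 2 and 1, without aged control replicate 2 or 3 it was 5, and without replicate 1 or 3 labelled knockout it was 13 and 5. Egr2 was the only member called in all 9 fits that left out 1 library. Both comparisons use the same 3 aged controls, so a library that reads low there moves them in opposite directions.

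The libraries labelled knockout were also compared with the young controls, which do not share that group. No member was called by limma, nor by limma voom on recovered fragments. An unadjusted limma p under 0.05 was seen for 11 of 42 members and for 1094 of all 11796 genes tested. Of all genes 0.0848% were called higher and 0.127% lower. The median log2 difference was 0.12, beside -0.03 for all genes. The libraries labelled knockout were all above the young controls in 15 members and all below in 1, Gadd45g, against 8.46% and 14.0% of all genes. Egr2 had the lowest adjusted p (log2 difference 0.47 ± 0.0844, adjusted p = 0.0874), and Dusp2 the largest log2 difference (0.81 ± 0.157, adjusted p = 0.115).

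**Figure D2:**
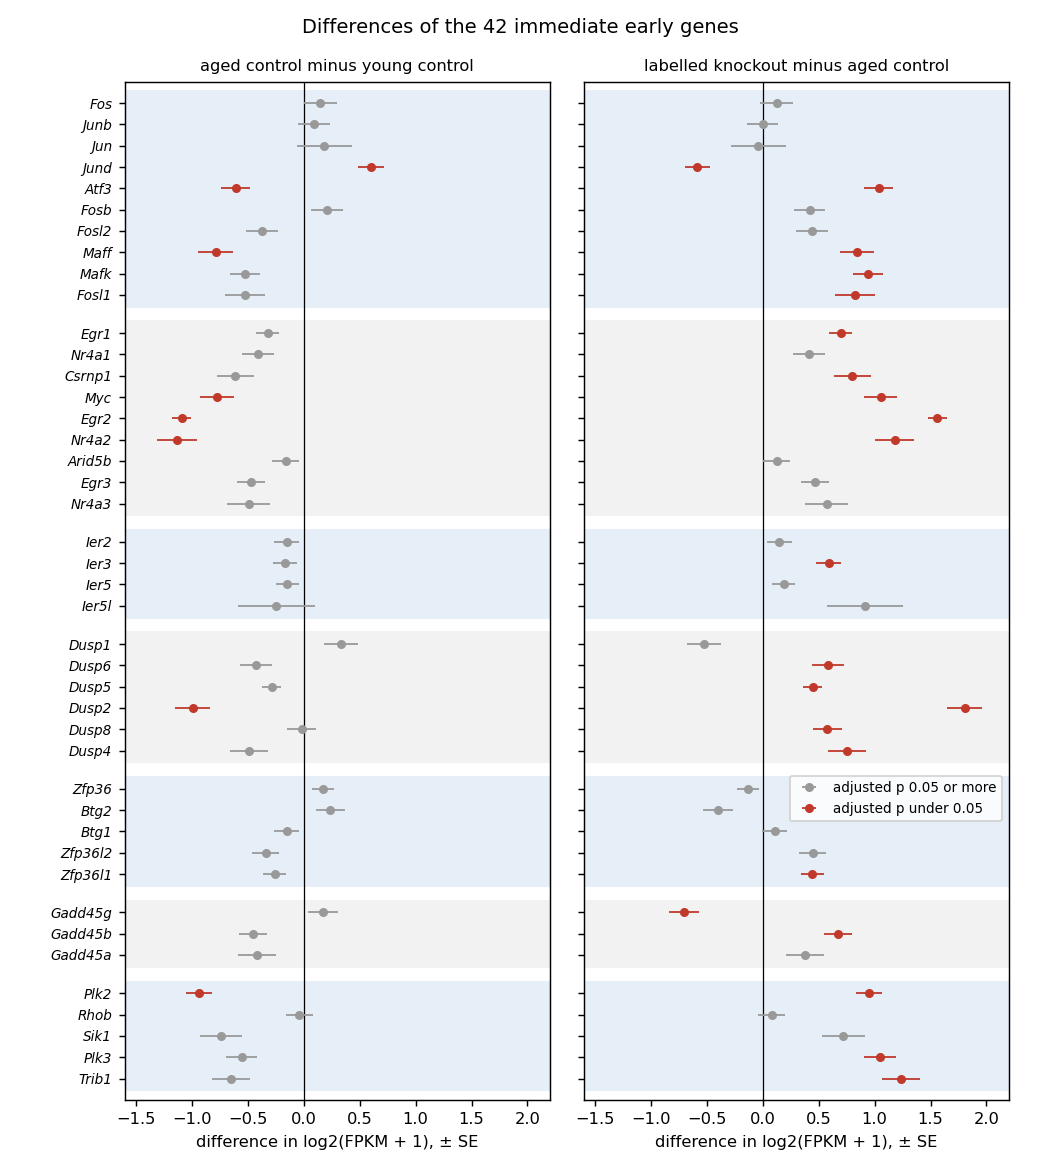
Differences in log2(FPKM + 1) of the 42 members, aged minus young control on the left and labelled knockout minus aged control on the right, as estimate ± SE from one limma fit of 9 libraries. Red marks an adjusted p under 0.05: 8 members on the left, 7 of them below 0, and 22 on the right, 20 of them above 0.

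The AP-1 group comprises the Fos and Jun proteins, which pair to bind DNA as the AP-1 factor, with Atf3 and the small Maf proteins as further partners. Of its 10 genes, 4 were higher and 1 lower in libraries labelled knockout than in aged controls, and 2 were lower and 1 higher in aged than in young controls. Its 3 most abundant genes passed neither test. Fos read 2571, 2983 and 3098 FPKM in young controls, 2545, 3649 and 3476 in aged controls, and 3631, 3408 and 3385 in libraries labelled knockout. The aged controls overlapped both other groups, which were apart from each other, with a log2 difference of 0.13 ± 0.147 between labelled knockout and aged (adjusted p = 0.638). Jun read 925.4, 1012 and 1075 FPKM in the young, 707.8, 1279 and 1628 in the aged and 1100.1, 1129 and 1091 in libraries labelled knockout. The aged controls alone spanned more than both other groups together. Junb read 1748, 1811 and 1872 FPKM in the young, 1639.6, 1792 and 2451 in the aged and 1973, 1900.1 and 1918 in libraries labelled knockout, with a log2 difference of -0.0006 ± 0.141 between the last 2 groups.

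Jund, a Jun protein that resting cells already hold, ran the other way. It read 305.9, 331.1 and 351.0 FPKM in young controls, 439.6, 517.0 and 548.4 in the aged and 341.2, 359.7 and 300.5 in libraries labelled knockout. All 3 aged controls were above the other 6 libraries. The log2 difference was 0.60 ± 0.114 for aged minus young (adjusted p = 0.0355) and -0.58 ± 0.114 for labelled knockout minus aged (adjusted p = 0.0227). Leaving out 1 library lost these calls in 6 and 3 of the 9 fits, with an adjusted p of at most 0.143 and 0.103 over all alternatives.

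Atf3, a stress-induced repressor and AP-1 partner, was the most abundant AP-1 gene called higher in libraries labelled knockout. It read 227.5, 217.2 and 241.2 FPKM in the young, 173.0, 156.7 and 122.7 in the aged and 318.7, 325.6 and 279.5 in libraries labelled knockout. The 3 groups did not overlap, and the log2 difference from aged to labelled knockout was 1.04 ± 0.129 (adjusted p = 0.00385, 9 of 9 fits). From young to aged it was -0.61 ± 0.129 (adjusted p = 0.0401), a call lost in 6 of the 9 fits. The small Maf genes Maff and Mafk encode partners that lack an activation domain of their own. Maff read 38.9, 37.6 and 34.97 FPKM in the young, 24.2, 19.2 and 20 in the aged and 50.03, 33.1 and 34.5 in libraries labelled knockout. The aged controls were the lowest 3 libraries, and young and labelled knockout overlapped. Its log2 difference was -0.79 ± 0.155 with age (adjusted p = 0.0362, lost in 6 of 9 fits) and 0.84 ± 0.155 from aged to labelled knockout (adjusted p = 0.0187). Mafk read 22.9, 19.7 and 20.9 FPKM in the young, 11.9, 13.9 and 17.9 in the aged and 30.6, 26.9 and 28.0 in libraries labelled knockout, with no overlap between groups. Its log2 difference from aged to labelled knockout was 0.94 ± 0.136 (adjusted p = 0.00666).

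Fosl1, a Fos relative that follows ERK signalling, was low throughout. It read 6.25, 4.54 and 7.28 FPKM in the young, 3.38, 4.01 and 4.10 in the aged and 8.41, 8.80 and 5.79 in libraries labelled knockout. All 3 aged controls lay below the rest, and the mean ratio of labelled knockout to aged was 2.00 (log2 difference 0.83 ± 0.179, adjusted p = 0.0317). This call was lost in 6 of the 9 fits. The AP-1 genes without a call in any comparison besides Fos, Jun and Junb were Fosb and Fosl2. Fosb stood at 123.2 ± 19.4, 141.7 ± 16.3 and 189.9 ± 23.4 FPKM (SD, n = 3) in young, aged and labelled knockout, and Fosl2 at 37.7 ± 3.47, 28.9 ± 3.50 and 39.8 ± 7.68 FPKM. Exons of 14 of the 42 members overlap those of another gene on the opposite strand, and with no strand setting given in the sources used here, reads of the pair cannot be told apart. These are Jun, Junb, Jund, Fosl1, Mafk, Csrnp1, Dusp1, Dusp5, Dusp8, Zfp36, Zfp36l1, Zfp36l2, Gadd45a and Plk3.

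The next group holds the zinc finger factors of the EGR family, the orphan nuclear receptors Nr4a1 to Nr4a3, Myc, Csrnp1 and Arid5b. Of its 9 genes, 5 were higher and none lower in libraries labelled knockout than in aged controls, and 3 were lower with age. Egr2 (chromosome 10, 67535475 to 67542188) had the lowest adjusted p of all members in both comparisons. It read 42.5, 39.0 and 43.8 FPKM in young controls, 19.1, 18.2 and 19.96 in aged controls and 60.8, 56.4 and 57.4 in libraries labelled knockout. The 3 groups were wholly apart, and the spread within each was small. The log2 difference was -1.09 ± 0.0844 from young to aged (adjusted p = 0.00208) and 1.56 ± 0.0844 from aged to labelled knockout (adjusted p = 1.40e-05, mean ratio 3.05). Both calls held in all 9 fits that left out 1 library and in all 11 other alternatives.

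Egr1, the founding EGR factor and a direct target of SRF and ELK1, was more abundant and moved less. It read 980.3, 965.2 and 1132 FPKM in the young, 768.5, 807.9 and 881.3 in the aged and 1401, 1271 and 1318 in libraries labelled knockout. The groups did not overlap, with a log2 difference of -0.32 ± 0.103 from young to aged (adjusted p = 0.0900) and 0.70 ± 0.103 from aged to labelled knockout (adjusted p = 0.00691). Egr3, a relative of Egr2, stood at 5.06 ± 0.250, 3.39 ± 0.476 and 5.09 ± 0.782 FPKM (SD, n = 3) in young, aged and labelled knockout, and was not called (adjusted p = 0.0642 and 0.0617).

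Of the nuclear receptors, which bind DNA without a known natural ligand and are induced by CREB signals, Nr4a2 alone was called. It read 25.2, 30.6 and 24.5 FPKM in the young, 11.5, 11.9 and 11.3 in the aged and 37.7, 21.4 and 25.7 in libraries labelled knockout. Aged controls were tightly grouped below the rest, while the libraries labelled knockout spread on both sides of the young controls. Its log2 difference was -1.14 ± 0.178 with age (adjusted p = 0.0191, lost without any 1 of the 3 young controls) and 1.18 ± 0.178 from aged to labelled knockout (adjusted p = 0.0075). Nr4a1 stood at 390.1 ± 35.1, 296.0 ± 57.8 and 390.8 ± 32.9 FPKM and Nr4a3 at 1.69 ± 0.468, 0.897 ± 0.156 and 1.85 ± 0.567 FPKM (SD, n = 3). Whether the 3 receptors differ from each other in response was not tested.

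Myc, the growth and biosynthesis factor, read 113.7, 107.2 and 97.1 FPKM in the young, 70.6, 52.5 and 62.5 in the aged and 157.7, 123.8 and 108.8 in libraries labelled knockout. Again the lowest 3 libraries were those of the aged controls. The log2 difference was -0.77 ± 0.151 with age (adjusted p = 0.0362, lost in 5 of 9 fits) and 1.05 ± 0.151 from aged to labelled knockout (adjusted p = 0.0065, kept in all 9). Csrnp1, a nuclear factor induced by AXIN1, read 146.1, 139.9 and 129.3 FPKM in the young, 77.1, 112.5 and 84.5 in the aged and 195.1, 149.98 and 134.8 in libraries labelled knockout. Its values in young and labelled knockout overlapped and those of the aged controls lay below both, with a log2 difference of 0.80 ± 0.165 from aged to labelled knockout (adjusted p = 0.0265, lost in 6 of 9 fits). Arid5b, a DNA-binding partner of a histone demethylase, stood at 9.39 ± 1.18, 8.25 ± 0.605 and 9.11 ± 1.18 FPKM and was not called.

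**Figure D3:**
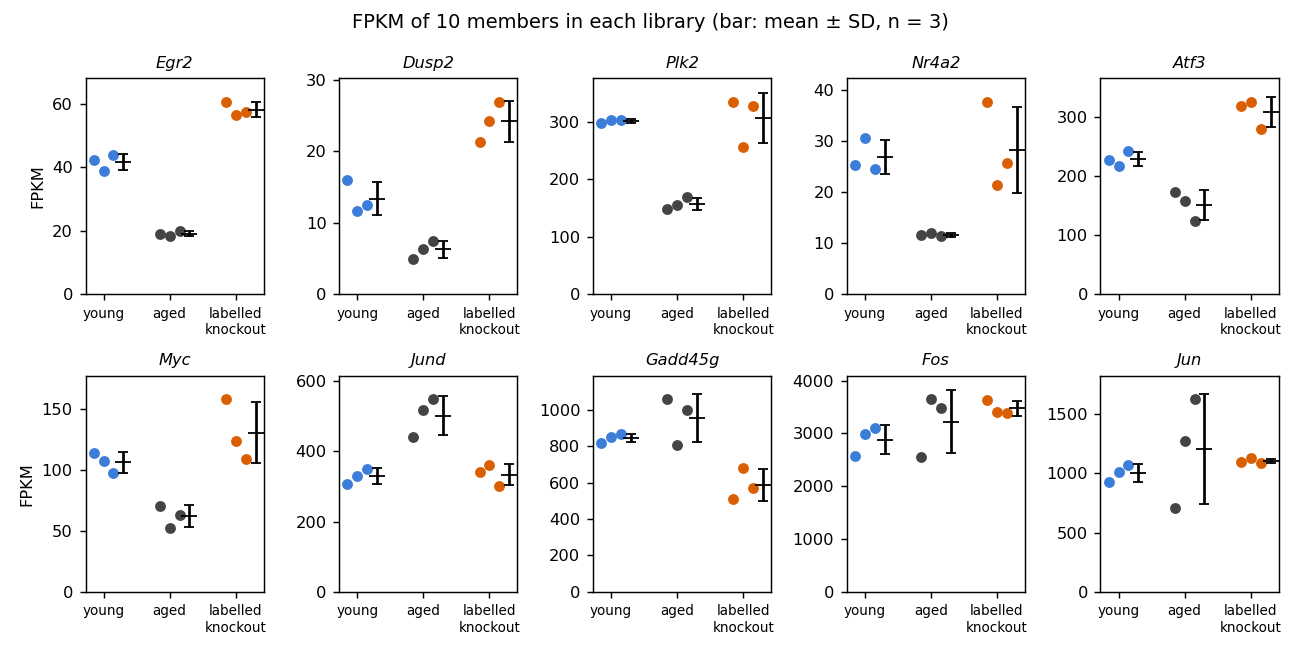
FPKM of 10 members in each library on linear axes from 0, with the mean ± SD of the 3 libraries beside each group. Egr2, Dusp2 and Atf3 show 3 separate levels, Plk2, Nr4a2 and Myc are lowest in the aged controls, Jund is highest there, Gadd45g is lowest in libraries labelled knockout, and the aged controls of Fos and Jun overlap or span the other groups.

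The dual-specificity phosphatases remove phosphate from MAP kinases and so limit the signal that induced them. Of the 6 genes, 5 were higher in libraries labelled knockout than in aged controls and none lower, and 1 was lower with age. Dusp2 (chromosome 2, 127336159 to 127338376), a nuclear phosphatase of ERK, showed the largest difference of all members. It read 16.0, 11.7 and 12.4 FPKM in the young, 4.96, 6.34 and 7.43 in the aged and 21.3, 24.3 and 27.0 in libraries labelled knockout, with no overlap between the groups. The log2 difference was -0.99 ± 0.157 with age (adjusted p = 0.0200, lost without any 1 of the 3 young controls) and 1.81 ± 0.157 from aged to labelled knockout (adjusted p = 0.000663, mean ratio 3.88). Dusp2 lies 9.21 Mb from Thbs1 on the same chromosome, and the part of that position in the result was not tested.

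Dusp4, another nuclear phosphatase, was near the bottom of the range. It read 2.82, 2.33 and 1.85 FPKM in the young, 1.05, 1.48 and 1.57 in the aged and 2.93, 2.39 and 3.68 in libraries labelled knockout. The lowest of these values, in aged control replicate 1, rests on 64 fragments, the fewest behind any member value. The aged controls were below the rest, and the log2 difference from aged to labelled knockout was 0.75 ± 0.169 (adjusted p = 0.0372). Dusp5, a nuclear ERK phosphatase, read 49.2, 45.4 and 46.6 FPKM in the young, 39.1, 37.9 and 38.2 in the aged and 57.8, 50.8 and 50.1 in libraries labelled knockout. The groups were apart and the log2 difference from aged to labelled knockout was 0.45 ± 0.0858 (adjusted p = 0.0206). Dusp6, the cytoplasmic ERK phosphatase, read 159.2, 144.7 and 168.4 FPKM in the young, 112.2, 123.3 and 115.1 in the aged and 180.7, 139.6 and 214.6 in libraries labelled knockout. The libraries labelled knockout lay on both sides of the young controls and above the aged ones, with a log2 difference of 0.58 ± 0.144 (adjusted p = 0.0496). Dusp8, which acts on JNK and p38, read 2.55, 2.68 and 2.93 FPKM in the young, 2.42, 2.72 and 2.89 in the aged and 5.30, 3.66 and 4.61 in libraries labelled knockout. Young and aged controls overlapped and the libraries labelled knockout were above both, with a log2 difference of 0.58 ± 0.131 from the aged (adjusted p = 0.0381). The calls of Dusp4, Dusp6 and Dusp8 each failed in 8 of the 9 fits without 1 library, and that of Dusp5 in 2.

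Dusp1, the phosphatase that ends p38 and JNK signals, was the most abundant of the family and was not called. It read 1138, 1309 and 1428 FPKM in the young, 1371, 1598 and 1941 in the aged and 1001, 1143 and 1245 in libraries labelled knockout. The aged controls lay above the libraries labelled knockout and overlapped the young, with a log2 difference of -0.53 ± 0.149 from aged to labelled knockout (adjusted p = 0.0755).

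The Ier genes are short intronless or nearly intronless response genes, of which Ier3 acts on survival and NF-kB signalling. Ier3 alone of 4 was called. It read 472.8, 428.8 and 454.1 FPKM in the young, 422.6, 404.4 and 380.0 in the aged and 562.6, 702.6 and 560.7 in libraries labelled knockout. The libraries labelled knockout were the highest 3, with a log2 difference of 0.59 ± 0.109 from the aged controls (adjusted p = 0.0190). Ier2 stood at 753.0 ± 24.4, 681.8 ± 103.8 and 750.9 ± 36.0 FPKM, and Ier5 at 164.8 ± 7.38, 149.5 ± 18.0 and 169.5 ± 7.72 FPKM (SD, n = 3) in young, aged and labelled knockout. Ier5l varied most of all members within a group, with 9.03, 16.3 and 33.2 FPKM in the aged controls, a coefficient of variation of 63.6%. It stood at 20.5 ± 2.2 FPKM in young controls and at 33.1 ± 1.57 FPKM in libraries labelled knockout.

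Zfp36 and its relatives bind AU-rich elements and bring about the decay of short-lived messenger RNAs, among them those of many immediate early genes, and the Btg proteins restrain proliferation. Of these 5 genes, Zfp36l1 was higher in libraries labelled knockout than in aged controls and none was lower. Zfp36l1 read 48.9, 41.5 and 43.1 FPKM in the young, 39.5, 35.3 and 36.2 in the aged and 55.9, 49.8 and 46.4 in libraries labelled knockout. The aged controls were below the rest, with a log2 difference of 0.44 ± 0.103 (adjusted p = 0.0415, lost in 7 of 9 fits that left out 1 library, after median-ratio scaling, with no filter and in the fit of the 2 groups alone). Zfp36, which encodes tristetraprolin, read 1138, 1208 and 1252 FPKM in the young, 1381, 1365 and 1310.03 in the aged and 1364, 1213 and 1132 in libraries labelled knockout. The aged and labelled knockout values overlapped (log2 difference -0.13 ± 0.0995, adjusted p = 0.445). Zfp36l2 stood at 73.8 ± 1.52, 58.5 ± 8.91 and 79.7 ± 8.05 FPKM, Btg1 at 199.2 ± 3.78, 180.1 ± 22.2 and 193.5 ± 17.0, and Btg2 at 676.1 ± 66.1, 795.8 ± 24.5 and 608.0 ± 111.7 FPKM (SD, n = 3) in the same order. None of these 3 was called.

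The Gadd45 genes encode small stress sensors that act on p38 and JNK signalling and on the cell cycle, and 2 of them were called in opposite directions. Gadd45b, an NF-kB target, read 104.3, 95.7 and 118.1 FPKM in the young, 86.9, 70.4 and 73.6 in the aged and 107.8, 126.3 and 136.5 in libraries labelled knockout. The aged controls were the lowest 3, with a log2 difference of 0.67 ± 0.125 from aged to labelled knockout (adjusted p = 0.0190). Gadd45g (chromosome 13, 51846678 to 51848468) read 820.4, 849.8 and 867.3 FPKM in the young, 1059.8, 810.0 and 1001 in the aged and 512.3, 681.5 and 569.5 in libraries labelled knockout. The libraries labelled knockout were below all 6 control libraries, while young and aged overlapped. Its log2 difference was -0.70 ± 0.134 from aged to labelled knockout (adjusted p = 0.0205, lost in 3 of 9 fits), the largest fall of any member. Gadd45a, a p53 target, stood at 30.7 ± 1.73, 23.4 ± 7.13 and 29.9 ± 1.76 FPKM (SD, n = 3) and was not called.

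The last group holds kinases and other signalling genes, of which 3 of 5 were higher in libraries labelled knockout than in aged controls and 1 was lower with age. Plk2 (chromosome 13, 110395046 to 110400844), a polo-like kinase of stressed and non-dividing cells, was the most abundant. It read 296.9, 303.0 and 302.9 FPKM in the young, 147.0, 155.7 and 168.1 in the aged and 334.7, 255.9 and 326.8 in libraries labelled knockout. All aged controls lay far below the other 6 libraries, and young and labelled knockout overlapped. The log2 difference was -0.94 ± 0.113 with age (adjusted p = 0.00814, lost without young control replicate 1 or 3) and 0.95 ± 0.113 from aged to labelled knockout (adjusted p = 0.00298). Plk3, a related stress kinase, read 25.6, 25.8 and 30.0 FPKM in the young, 14.7, 20.3 and 19.9 in the aged and 44.2, 36.0 and 35.8 in libraries labelled knockout. The groups did not overlap, and the log2 difference from aged to labelled knockout was 1.05 ± 0.140 (adjusted p = 0.00543). Trib1, a pseudokinase that directs C/EBP proteins to degradation, read 26.1, 22.7 and 22.5 FPKM in the young, 12.8, 15.3 and 16.4 in the aged and 48.3, 32.7 and 29.7 in libraries labelled knockout. The groups were again apart, with a log2 difference of 1.24 ± 0.170 from aged to labelled knockout (adjusted p = 0.0058). Sik1, a CREB-induced kinase that restrains CREB coactivators, stood at 73.7 ± 2.74, 44.2 ± 8.99 and 74.4 ± 20.7 FPKM (SD, n = 3), with an adjusted p of 0.0587 with age and 0.0600 from aged to labelled knockout. The small GTPase gene Rhob stood at 156.6 ± 17.2, 152.4 ± 20.5 and 160.3 ± 9.11 FPKM.

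Called members were found at all levels of abundance, and whether the share called differs with abundance was not tested. Of the 14 members with the highest means, 229.1 to 3194 FPKM, 4 were higher and 2 lower, with a median log2 difference of 0.06. Of the middle 14, from 35.5 to 190.9 FPKM, 7 were higher and none lower, with a median of 0.45. Of the lowest 14, from 1.48 to 32.5 FPKM, 9 were higher and none lower, with a median of 0.83. For aged minus young the medians were 0.12, -0.36 and -0.51 in the same order. These are descriptions across genes of the same libraries, and genes are not independent replicates. The pseudocount of 1 shrinks log2 differences of low genes, and the medians over all genes of each level were not computed.

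**Figure D4:**
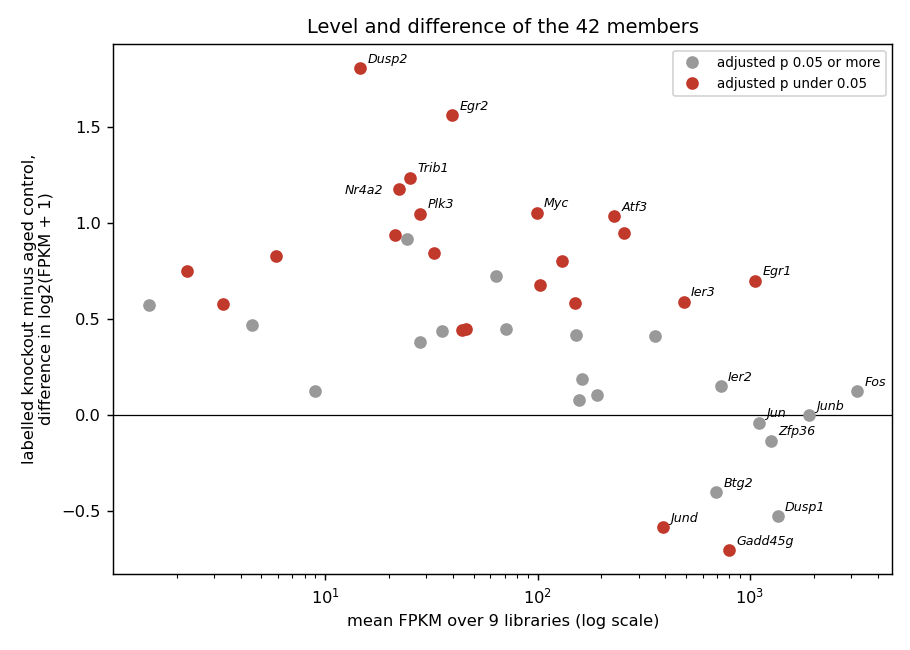
Mean FPKM of each of the 42 members over 9 libraries (log axis) against its difference in log2(FPKM + 1), labelled knockout minus aged control, 1 point per gene. Fos, Junb, Jun and Zfp36 lie near 0 at the right, Dusp2 and Egr2 lie highest, and red marks an adjusted p under 0.05.

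Within groups the median spread of the members was near or below that of all genes tested, which were not matched for level. Many members are abundant, and whether they vary more than other genes of their level was not tested. The median coefficient of variation was 7.62% in the young, 13.1% in the aged and 11.7% in libraries labelled knockout, and 7.53%, 16.4% and 12.4% over all genes tested. Replicate 1 labelled knockout was the highest of its group in 26 of 42 members, and aged control replicate 1 the lowest of its group in 24. Other libraries also stood out, with young control replicate 3 the highest in 22 and replicate 3 labelled knockout the lowest in 21. The shares over all genes were not counted. Replicate 1 labelled knockout also had the highest sum of heat shock genes, 2172 FPKM beside 2070 and 1951 in the other two. Aged control replicate 1 had the highest heat shock sum of the aged controls, 1818 FPKM beside 1537 and 1332. Most genes of that list, but not all, followed this order. Of the aged controls, replicate 1 was the highest for every gene of the list except Hspa1a, Hspa1b and Dnajb1. In the aged controls Hspa5 read 453.5, 302.1 and 226.7 FPKM and Hspa8 430.9, 383.8 and 331.8. By contrast, Hspa1a read 12.85, 32.54 and 22.44 FPKM and Hspa1b 20.61, 56.07 and 31.32. The part of tissue dissociation in these orders was not tested.

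Other genes of the pathway were taken from fixed lists. Among 23 genes that carry the signal to SRF and CREB, such as Srf, Creb1 and the MAP kinases above them, none was called by limma or limma voom in either comparison with the aged controls. An unadjusted p under 0.05 was seen for 9 of them from aged to labelled knockout and for 10 from young to aged, and the median log2 differences were 0.18 and -0.27. Of all 11796 genes tested, 2838 and 3263 had such a limma p in the same order. Of 14 other feedback inhibitors, 4 were higher in libraries labelled knockout than in the aged controls. Socs1, which ends cytokine receptor signals, went from 34.0 ± 1.89 to 75.7 ± 9.04 FPKM (adjusted p = 0.00438), and Errfi1, an inhibitor of the EGF receptor, from 22.02 ± 0.705 to 37.5 ± 3.91 FPKM (adjusted p = 0.00456). The NF-kB regulators Nfkbiz and Nfkbia had log2 differences of 0.98 ± 0.139 and 0.48 ± 0.106 (adjusted p = 0.00643 and 0.0353). With age Spred2, an inhibitor of the Ras pathway, was lower (log2 difference -0.57, adjusted p = 0.0382), and the list held no called gene in 6 of the 9 fits without 1 library.

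Of 17 tested genes that are also induced fast, 4 were higher in libraries labelled knockout than in aged controls and 3 were lower with age. Irf1, an interferon-responsive factor, read 229.3, 177.3 and 188.2 FPKM in the young, 101.5, 88.1 and 91.7 in the aged and 344.4, 299.1 and 279.9 in libraries labelled knockout. The groups did not overlap, and its log2 difference from aged to labelled knockout was 1.70 ± 0.122 (adjusted p = 0.000148). Mcl1, a short-lived survival protein, and the serum- and stress-induced kinase Sgk1 had log2 differences of -0.62 and -0.75 with age (adjusted p = 0.0355 and 0.0371) and of 0.95 and 0.85 from aged to labelled knockout (adjusted p = 0.00348 and 0.0158). Vegfa, the endothelial growth factor, had 0.58 ± 0.0870 in the latter (adjusted p = 0.00706). The count with age was 0 without young control replicate 1 and 5 without replicate 2 labelled knockout. Ptgs2, at 0.14 to 3.49 FPKM, had a mean below 1 and was not tested.

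Heat shock genes encode chaperones. Of the 14, 5 were higher in libraries labelled knockout than in aged controls and none lower, with a median log2 difference of 0.41. From young to aged none was called by limma or limma voom, with a median of -0.07. An unadjusted limma p under 0.05 was seen for 3 of the 14, and for 3263 of all 11796 genes tested. Hsph1 read 3.39, 3.09 and 3.76 FPKM in the young, 3.48, 2.89 and 1.62 in the aged and 10.6, 7.32 and 6.98 in libraries labelled knockout, with a log2 difference from the aged of 1.36 ± 0.207 (adjusted p = 0.00781). The others were Dnaja1, Hspa8, Dnajb1 and Bag3, with log2 differences of 0.74, 0.57, 0.50 and 0.49. Hspa1a and Hspa1b, the near-identical inducible Hsp70 genes between which reads may be split, had -0.29 ± 0.260 and -0.11 ± 0.278 (adjusted p = 0.535 and 0.841). Bag3, Hspa1a and Hspa1b were picked out after their values were seen, and Hspa5, given above, was not called and was also named outside the rule. The count of 5 ran from 1 to 7 when 1 library was left out, with 1 without aged control replicate 2 or replicate 1 labelled knockout, 2 without young control replicate 1 or 2 or replicate 3 labelled knockout, and 4 to 7 without the rest.

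**Figure D5:**
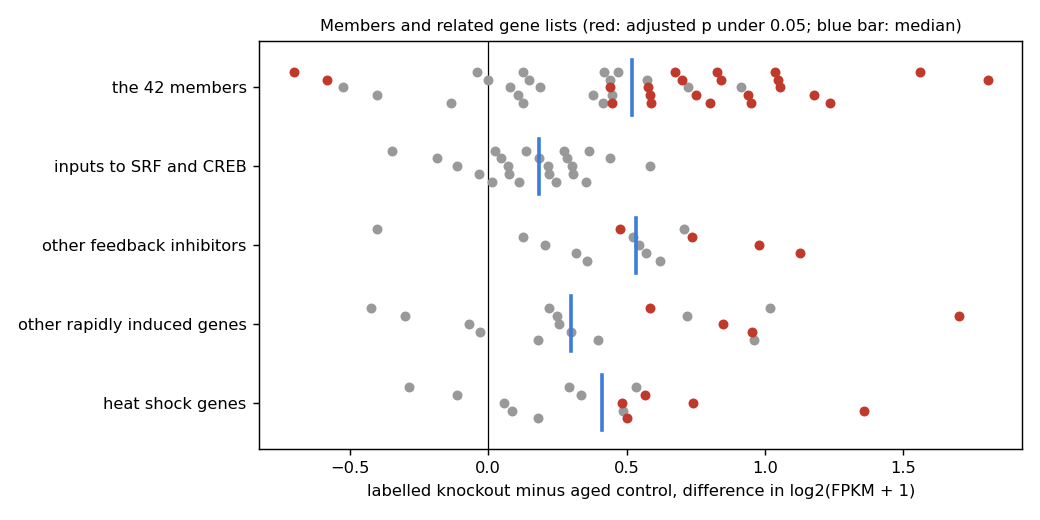
Differences in log2(FPKM + 1), labelled knockout minus aged control, of the 42 members and of 4 related gene lists, 1 point per tested gene, with red for an adjusted p under 0.05 and a blue bar at each median. The medians are 0.52 for the members, 0.18 for the inputs to SRF and CREB, 0.53 for other feedback inhibitors, 0.30 for other rapidly induced genes and 0.41 for heat shock genes.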

How the data were processed

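The authors deposited FPKM values, rounded to 2 decimals, for 52183 genes in 9 libraries. The submitters' processing notes name FastQC 0.11.5, STAR, edgeR and the builds GRCm38 and mm10. Counting rule, strand setting and annotation: not given in the sources used here. Gene identifiers all matched GENCODE M21, which gave positions and exon lengths.

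The test was limma 3.58.1 in R 4.3.3 (lmFit, eBayes with a trend) on log2(FPKM + 1), where 1 is the pseudocount. All 9 libraries entered a single fit that had 1 mean for each group and 6 residual degrees of freedom. Genes averaging 1 FPKM or more, 11796 in all, were kept, p-values were adjusted by Benjamini-Hochberg over all of them, and an adjusted p under 0.05 was called. The script was tested on simulated data. Depth was taken from genes of 60 to 400 bases, where 99.43% to 99.69% of low values were whole multiples of 1 fragment within a tolerance of 0.1.

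The members and gene lists were chosen with earlier results of these data known. By rule, values per library are given for members called in any comparison and for the 6 most abundant, and up to 4 called genes are named per related list. Alternatives were other pseudocounts, filters, scalings and thresholds, robust eBayes, fits of 2 groups, the replicate number as a block and each library left out. Limma voom on recovered fragments was added after the data were seen. Python 3.11.15 with matplotlib 3.10.9 drew the figures.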

Additional observations from a re-analysis of the deposited data

How the results depend on the processing

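No single-member result that was called in the main or the alternative fit changed direction. Changes of direction without a call in either fit were not counted. Of 1614 values of the 27 members given by library, 1465 stayed on their side of the threshold, 123 lost a call and 26 gained one. These values span 3 comparisons, and only members called in the main fit, 8, 22 and 0 of them, could lose a call. The 1614 values are therefore not the base against which to read the 123 losses. Counts of calls moved more. For aged against young controls, 8 members were called, 2 with no filter, 13 with a mean of at least 5 FPKM, 17 at a threshold of 0.1 and 1 to 13 with 1 library left out. All genes called there numbered 471, and 39 with no filter, 716 in a fit of the 2 groups alone, 1673 at a threshold of 0.1 and 5 to 1039 with 1 library left out. For labelled knockout against aged, 22 members were called, 9 with no filter, 10 in the fit of the 2 groups alone and 14 to 23 with 1 library left out, and 565 genes were called, 146 with no filter, 149 in the fit of the 2 groups alone, 1297 at a threshold of 0.1 and 197 to 1159 with 1 library left out. For labelled knockout against young, no member was called and 1, Egr2, at a threshold of 0.1, while 25 genes were called, 15 with no filter (11 of the 25 among them) and 12 at a mean of at least 5 FPKM, with 40 at a threshold of 0.1 and 11 to 31 with 1 library left out. The cause of these shifts was not tested. After median-ratio scaling the genes called for aged against young split into 238 higher and 196 lower in place of 141 and 330, and all-gene medians moved by at most 0.0518 in log2. Limma voom called 10, 23 and 0 members in the 3 comparisons.

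With the replicate number as a block, 6, 19 and 0 members were called, and the genes called for aged against young fell to 183. Deviations of same-numbered libraries had correlations from -0.129 to 0.124, and 3, 2 and 2 of 6 libraries matched their own number best. So few libraries cannot show whether a number stands for anything shared, such as a batch. With 3 libraries a group, an exact permutation test of 1 gene could not go below p = 0.1.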
